A study of Mus musculus with 2 samples.

Results

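The Clec genes encode proteins named for the C-type lectin domain, and they were taken here as every gene whose symbol reads Clec, a number, a letter and, where present, a further number. This rule found 33 of the 55536 annotated genes, among them 30 annotated as protein-coding, the pseudogenes Clec2j and Clec2f, and Clec7a, which the annotation (GENCODE M21 on mm10) calls a polymorphic pseudogene. Messenger RNA with poly(A) tails was sequenced from primary macrophages that had been derived from the bone marrow of C57BL/6J mice, an inbred laboratory strain. The cultures received 100 ng/mL Lipid A, the Tlr4-binding moiety of lipopolysaccharide, over 12 h, had 12 h after its washout, and were stimulated with the same dose for 30 min before RNA was taken. One label field names lipoprotein A in place of Lipid A, and nothing in the labels settles which is meant. Age and sex were not collected, no allele or transgene is named, and the 2 libraries are biological replicates with separate biosample records but 1 donor record, so their spread may not be that of separate animals. All libraries belonged to this 1 group. Untreated and once-stimulated macrophages were not analysed here, so no value below says what Lipid A did to a gene.

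Most of these proteins are receptors that sit in the membrane by their N terminus and present a single lectin-like domain outside the cell. In myeloid cells some bind sugars and glycolipids of fungi and bacteria, and others bind products of dying cells or proteins on neighbouring cells. The activating receptors signal through the kinase Syk, either by a tyrosine motif of their own or through the adaptors Fcer1g and Tyrobp, and on to the Card9, Bcl10 and Malt1 complex. The inhibitory receptors recruit phosphatases such as Ptpn6.

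Gene-assigned counts came to 41938419 in replicate 1 and 30780681 in replicate 2. All 8 macrophage markers were detected, and Adgre1, which encodes F4/80, stood at 2803 and 2492 TPM (transcripts scaled to a fixed total, corrected for length). Of the markers of other cells, Cd209a and Ly6g had no count, the 5 NK cell markers summed to 0.310 and 0.0400 TPM, and of the 7 dendritic cell markers only Ccr7 was detected. Neutrophil markers differed between the libraries, with a summed level of 75.3 TPM in replicate 1 and 9.88 TPM in replicate 2 over 9 genes, 2 of them detected. Endothelial markers (2 of 6 detected) summed to 10.2 and 31.4 TPM, platelet markers (1 of 6) to 3.77 and 1.82 TPM, and B cell markers (1 of 5) to 7.92 and 4.01 TPM. Stromal markers were detected throughout (7 of 7, summing to 573 and 650 TPM). In RNA from a whole culture, fewer cells of a type and less RNA per cell cannot be told apart.

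Of the 33 Clec genes, 16 were detected, meaning that they reached 1 TPM in both libraries, and 17 were not. The same rule was met by 48.7% of all protein-coding genes, so the share of Clec genes detected was close to that of genes in general. Those detected had high levels. Replicate 1 gave a median of 72.7 TPM and replicate 2 of 69.4 TPM over detected members, whereas detected protein-coding genes had medians of 17.5 and 16.4 TPM. The family summed to 2635 and 2223 TPM (2429 ± 292, SD, n = 2), or 0.280% and 0.244% of the TPM of protein-coding genes. In both libraries 7 members reached 100 TPM and 12 reached 10 TPM. The plot of levels by library shows that most members were either well above 1 TPM or well below it.

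**Figure D1:**
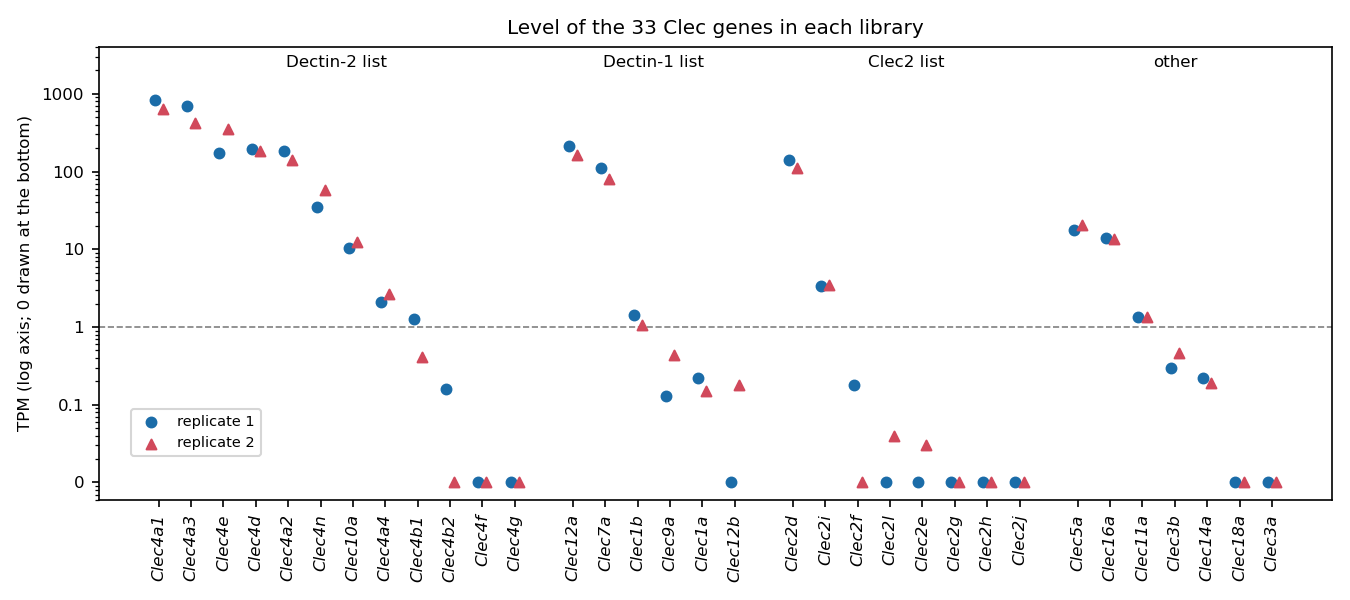
TPM of each of the 33 Clec genes (log axis, values of 0 drawn at the bottom) in replicate 1 (blue circles) and replicate 2 (red triangles), grouped by list. The dashed line is the detection limit of 1 TPM, which 16 genes met in both libraries, and Clec4a1 was the highest at 838 and 646 TPM.

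The genes of the Dectin-2 list held most of the family's RNA. This list of 12 genes took 81.0% of the family's TPM in replicate 1 and 82.0% in replicate 2, with 8 members detected. It includes Clec10a, Clec4f and Clec4g, which lie elsewhere and belong to other lectin groups. Its core is a cluster on chromosome 6 that spans 368 kb (chr6:122921848-123289870, mm10). The cluster alone took 80.6% and 81.5% of the family's TPM, and 7 of its 9 genes were detected. From one end to the other the 9 genes are Clec4a1, Clec4a3, Clec4a4, Clec4b1, Clec4a2, Clec4b2, Clec4n, Clec4d and Clec4e, all on the plus strand but Clec4e. Neighbours in this row differed widely, since Clec4a4 and Clec4b1 lay between Clec4a3 and Clec4a2, both over 100 TPM, and were themselves at 2.69 TPM or less.

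**Figure D2:**
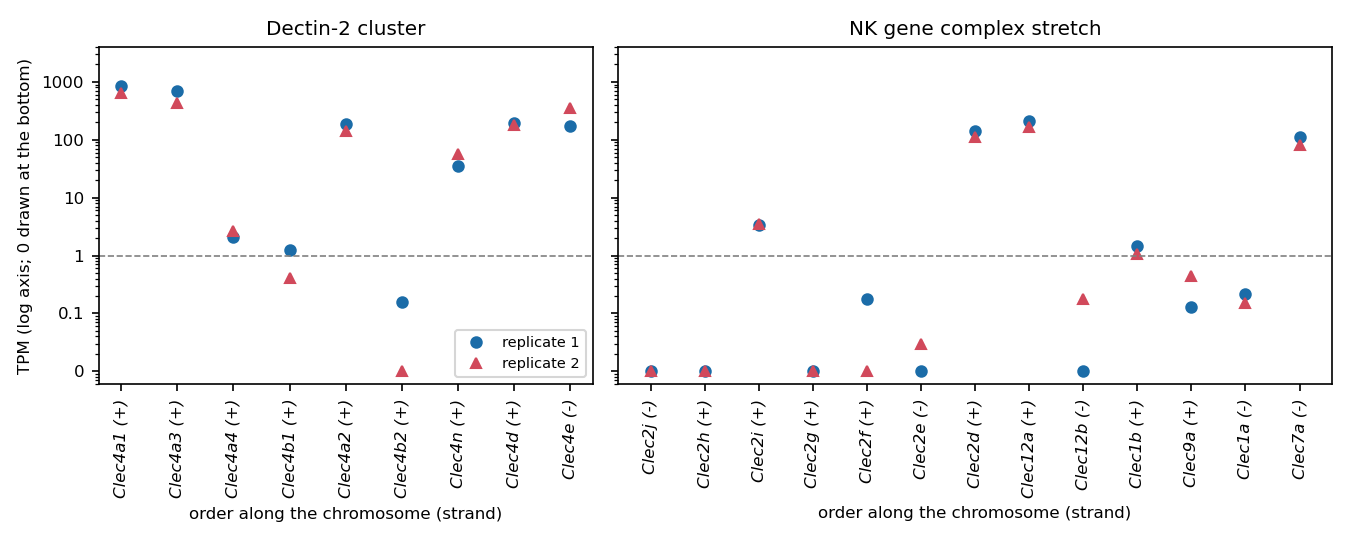
TPM (log axis, values of 0 drawn at the bottom) of the Clec genes in their order along chromosome 6, in the Dectin-2 cluster (left) and in the stretch that holds the Clec2 genes and the Dectin-1 group (right), with the strand in brackets. Blue circles are replicate 1 and red triangles replicate 2, and Clec4a4 and Clec4b1 sit low between Clec4a3 and Clec4a2.

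The highest Clec genes encode members of the DCIR family. Clec4a1 (ENSMUSG00000049037.8, chr6:122921848-122934619), also known as Dcir4, stood at 838 TPM in replicate 1 and 646 TPM in replicate 2 (742 ± 136, SD, n = 2), which placed it at rank 147 of the 10728 detected protein-coding and Clec genes. Clec4a3 (ENSMUSG00000043832.13, chr6:122952515-122969875), also known as Dcir3, followed at 694 and 425 TPM (559 ± 191). Both lack the inhibitory tyrosine motif of DCIR, and together they held 58.2% and 48.2% of the family's TPM. Clec4a1 was above Clec4a3 within each library. Its lower value was under the higher value of Clec4a3, so the values of these neighbours overlapped across the libraries. Their order was the same in both libraries and was not tested.

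Clec4a2 (chr6:123106428-123143999), which encodes DCIR itself with its inhibitory motif, had 186 and 139 TPM. Clec4a4, or Dcir2, a receptor known from a subset of dendritic cells, had only 2.12 and 2.69 TPM from 30 and 28 counts. It is also the member that shares most sequence with other genes, since 21% of its 31-base words occur elsewhere, chiefly in Clec4a2 and Clec4a3. The second deposited quantification, made from FASTQ files, put it at 3.96 and 4.49 TPM, so its level is uncertain. Clec4b1, which encodes the activating receptor DCAR and shares 19.0% of its words, had 17 counts in replicate 1 (1.27 TPM) and 4 in replicate 2 (0.410 TPM). Clec4b2 had 4 counts and 0.

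The activating receptors at the other end of the cluster were all detected. Clec4e (ENSMUSG00000030142.10, chr6:123281789-123289870, minus strand) encodes Mincle, which binds mycobacterial cord factor and signals through Fcer1g. It stood at 172 TPM in replicate 1 and 357 TPM in replicate 2 (265 ± 131), the second value being higher. Clec4d (ENSMUSG00000030144.4, chr6:123262111-123275265) encodes MCL, a partner of Mincle, and had 196 and 183 TPM (189 ± 9.21). Clec4n (ENSMUSG00000023349.14, chr6:123229843-123247021) encodes Dectin-2, a receptor for fungal mannans, and had 34.5 and 57.6 TPM (46.1 ± 16.3). Clec4e was thus below Clec4d in replicate 1 and above it in replicate 2, and the levels of Clec4e, Clec4d, Clec12a and Clec4a2 overlapped over the libraries.

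The 3 listed genes that lie elsewhere differed in level. Clec10a (chr11:70156197-70170834), the galactose-binding lectin MGL1, had 10.4 and 12.5 TPM. It shares 14.8% of its 31-base words with other genes, chiefly with its paralogue Mgl2, which itself had only 17 and 4 counts. Clec4f, a lectin of Kupffer cells, and Clec4g, known from liver sinusoidal endothelium, had 0 counts in both libraries and in both quantifications. Among Kupffer cell markers, Marco (284 and 318 TPM) and Cd5l (346 and 203 TPM) were detected and Timd4 and Vsig4 were at 0.150 TPM or less.

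The Dectin-1 group was split between genes at around 100 TPM and genes near 0. Clec12a (ENSMUSG00000053063.11, chr6:129342691-129365303) encodes MICL, an inhibitory receptor that binds uric acid crystals, and had 211 and 165 TPM (188 ± 31.9). Clec7a (ENSMUSG00000079293.11, chr6:129461591-129472779, minus strand) encodes Dectin-1, the receptor for fungal beta-glucan, and had 111 and 81.1 TPM (96.0 ± 21.1). Clec12a was higher than Clec7a in both libraries, and the values did not overlap. The 4 genes that lie between them on the chromosome were low. Clec1b, which encodes the podoplanin receptor CLEC-2 of platelets, had 1.44 and 1.05 TPM from 35 and 10 counts, and its ligand gene Pdpn had 16.5 and 12.1 TPM. Clec1b overlaps Clec9a by 474 bases on the same strand, so their few counts can be divided differently. Clec9a, the DNGR-1 receptor of cross-presenting dendritic cells, had 11 and 13 counts, and Xcr1, another marker of those cells, had 0.140 and 0.360 TPM. Clec1a had 19 and 16 counts and Clec12b 0 and 4.

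Some Clec2 proteins are ligands for the Nkrp1 receptors of NK cells. Of the 8 listed genes with an entry, which include the pseudogenes Clec2f and Clec2j, 2 were detected. Clec2d (ENSMUSG00000030157.5, chr6:129180615-129186534) encodes Clr-b, which is known for restraining NK cells, and had 140 and 112 TPM (126 ± 20.0). Clec2i, which encodes Clr-g, had 3.39 and 3.45 TPM. These genes resemble one another, with 11.8% of the 31-base words of Clec2d and 11.3% of those of Clec2i shared. The other 6 were at 2 counts or fewer in each library: Clec2f had 2 and 0, Clec2l and Clec2e had 0 and 1, and Clec2g, Clec2h and Clec2j had none. The listed Nkrp1 receptor genes Klrb1a, Klrb1b, Klrb1c and Klrb1f had between 0 and 7 counts in either library.

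The remaining members are a mixed group of receptors, secreted proteins and an intracellular protein. Clec5a (chr6:40574894-40585821, minus strand), a myeloid receptor also called MDL-1 that signals through Tyrobp, had 17.5 and 20.3 TPM. Clec16a (chr16:10545339-10744878), an intracellular protein of mitophagy that has no lectin role despite its name, had 13.8 and 13.6 TPM. Clec11a, which encodes a secreted growth factor of bone, had 1.36 and 1.34 TPM from 103 and 77 counts. Clec3b, the plasminogen-binding tetranectin, had 6 and 7 counts, and Clec14a, an endothelial receptor, had 27 and 17. Clec18a and Clec3a had 0 counts in both libraries. For a gene with no count, up to 3 counts remain possible, which is 0.0715 CPM in replicate 1 and 0.0975 CPM in replicate 2, from counting error only.

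The levels were compared between the 2 quantifications. After centring on the median of all genes compared, none of the 16 members at 1 TPM or more in both tables was 2-fold apart, a limit that 0.767% of 10821 genes passed. Clec4a4 came closest with a log2 difference of 0.99 (2.41 TPM from alignments and 4.23 TPM from FASTQ files), and the other 15 lay between -0.11 and 0.17.

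Because both libraries had the same treatment, the ratio of replicate 2 to replicate 1 describes how far cultures of 1 kind differed. It was computed from scaled counts for the 15 members with at least 20 counts in each library. Of these, 6 were higher and 9 lower in replicate 2, and their median log2 ratio was -0.09, against -0.02 over all 12471 genes with as many counts. The exact 95% interval, which covers counting error only, lay above 0 for 4 members, below 0 for 8 and held 0 for 3. The share of all genes whose interval leaves out 0 was not computed, so these numbers are no trait of the family. With many counts an interval leaves out 0 even at a small ratio, such as -0.09 for Clec4d. With 1 library on each side there is no p-value.

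Clec4e was the only member that differed at least 2-fold. It had 9023 counts in replicate 1 and 14975 in replicate 2 from the smaller library, a log2 ratio of 1.18 (interval 1.15 to 1.22), and 98.7% of all genes had a lower ratio. At least 2-fold higher values were found for 1.94% of all genes. A single member past this limit is no statement about the family. Clec4n followed with a log2 ratio of 0.80 (0.67 to 0.93, above 96.6% of genes). No member was 2-fold lower, a limit passed by 0.521% of genes. The lowest was Clec4a3 at -0.62 (-0.66 to -0.58, above 2.67% of genes), and Clec7a, Clec4a2, Clec4a1, Clec12a and Clec2d lay between -0.44 and -0.29. Clec4d, the nearest neighbour of Clec4e, differed little at -0.09 (-0.15 to -0.03).

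**Figure D3:**
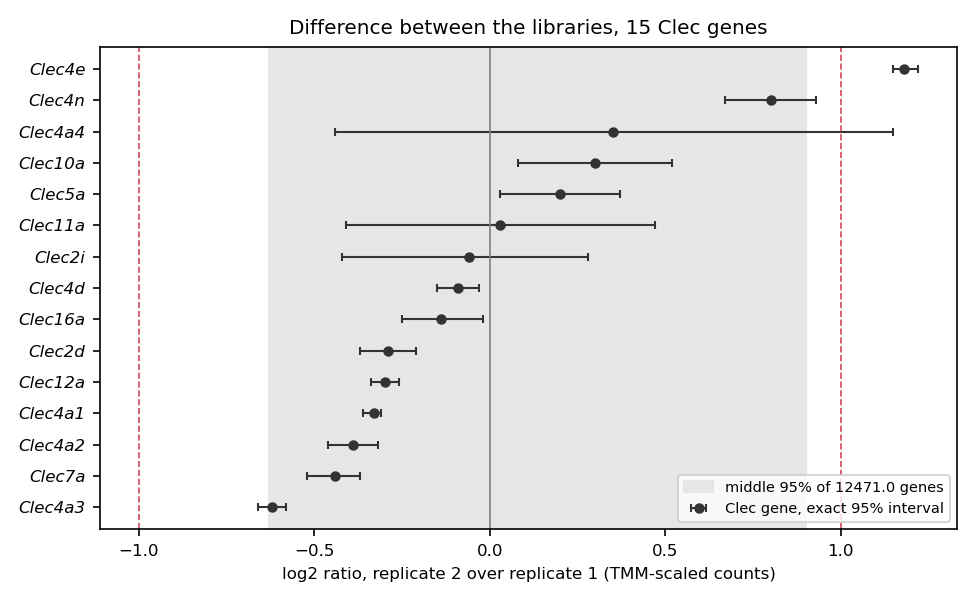
Log2 ratio of replicate 2 to replicate 1 (TMM-scaled counts) for the 15 Clec genes with at least 20 counts in each library, with exact 95% intervals for counting error. The grey band holds the middle 95% of 12471 genes (-0.63 to 0.90), the red dashed lines mark 2-fold, and only Clec4e at 1.18 lay beyond both.

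Some genes outside the family also differed between the libraries. Tnf and Nfkbia, early inflammatory genes picked for reference after their values were seen, had log2 ratios of 1.45 and 1.29, and the macrophage marker Cd14 had 1.07. Cd14 was the only one of the 8 macrophage markers past 2-fold, and their median was -0.25. Of the 3 endothelial markers with enough counts, Kdr and Vwf were at 1.97 and 1.44 and Cdh5 at -0.54. The neutrophil marker S100a9 was at -2.94. The part of these differences in the ratios of the Clec genes was not tested.

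The signalling genes that serve these receptors were expressed throughout. All 24 listed genes were detected, against 48.7% of all protein-coding genes, but the list was chosen with earlier results of these data known. None was 2-fold different between the libraries, with a median log2 ratio of -0.08. Over all genes, 1.94% were at least 2-fold higher in replicate 2 and 0.521% lower, so this is no trait of the list. The adaptor genes Fcer1g and Tyrobp were highest: Fcer1g, which Mincle, MCL and Dectin-2 use, stood at 4252 and 3063 TPM, and Tyrobp at 1780 and 1975 TPM. Hcst, another adaptor gene of the list, had only 20.0 and 14.0 TPM from 100 and 49 counts. The phosphatase gene Ptpn6 had 431 and 375 TPM and the kinase gene Syk 237 and 205 TPM. Card9 was lower at 23.2 and 24.5 TPM, Bcl10 had 42.5 and 47.1 TPM, and Malt1 had 8.95 and 16.5 TPM, with a log2 ratio of 0.71. Src was the lowest of the list at 5.73 and 6.34 TPM. Sf3b3, a nuclear protein that Mincle binds when it leaves dead cells, had 42.6 and 32.7 TPM.

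Of 43 listed genes that mostly have a C-type lectin domain but another name, 15 were detected and 14 had 0 counts in both libraries. Of all protein-coding genes, 48.7% were detected. The list also holds Selplg, a selectin ligand and no lectin. Highest were Cd72 (265 and 407 TPM), Selplg (278 and 282 TPM) and Cd93 (127 and 95.9 TPM). Mrc1, the mannose receptor, had 41.5 and 33 TPM. Of the DC-SIGN relatives, Cd209a to Cd209e had 0 counts, Cd209f was detected at 1.20 and 2.00 TPM from 35 and 44 counts, and Cd209g had 5 and 20 counts. None of the 17 genes of the list with at least 20 counts in each library was 2-fold different, and the others were not called. Few genes in general were (1.94% higher and 0.521% lower in replicate 2).

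Transcript tables showed that a gene's level and its coding RNA were not the same thing for several members. Of the 16 detected genes, 12 have more than 1 annotated transcript, and Clec4a1, Clec2d, Clec4a4 and Clec11a have 1 each. Over all 16, the transcript that led by its mean share had a median of 73.9% of the gene's TPM in replicate 1 and 64.2% in replicate 2. With the transcript leading in replicate 2 alone the second median was 68%, since in Clec1b, with 10 counts there, another transcript led. Clec12a was nearly all Clec12a-201 (98.5% and 98.0%), and the leading transcript of Clec4a3 held 75.7% and 80.3%. In Clec7a and Clec16a no transcript reached 50% in either library. These shares are estimates that divide reads among overlapping transcripts.

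**Figure D4:**
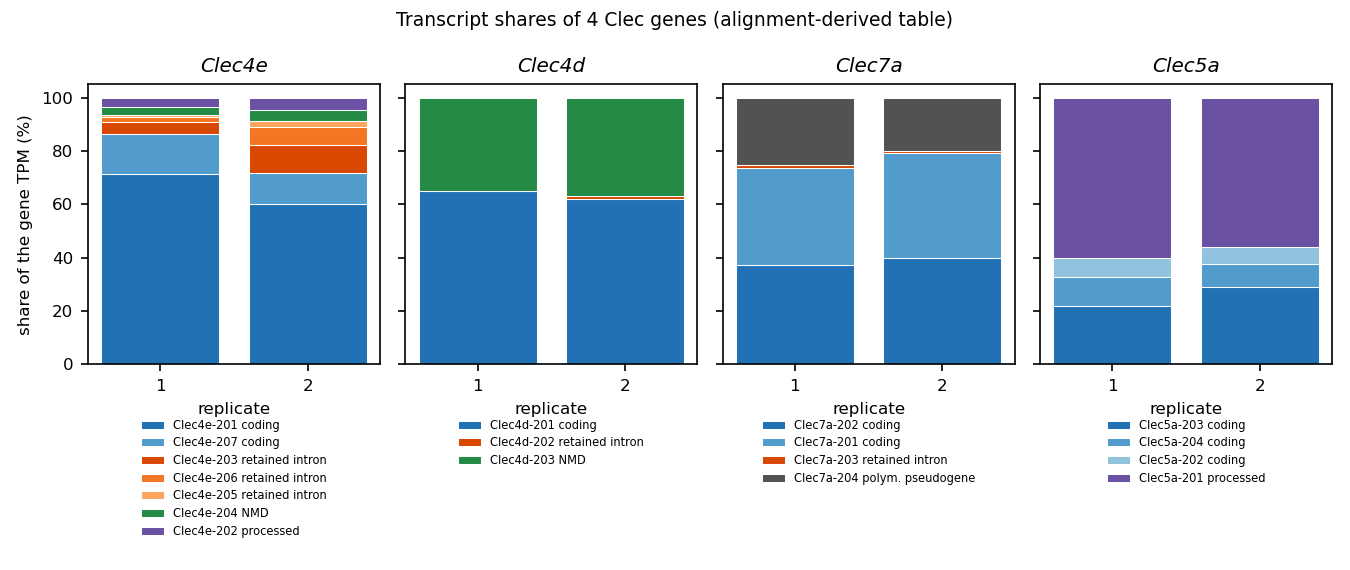
Share of the gene's TPM (%) in each annotated transcript of Clec4e, Clec4d, Clec7a and Clec5a, as stacked bars for replicate 1 and replicate 2, from the alignment-derived transcript table. Blue is protein-coding, orange retained intron, green nonsense-mediated decay (NMD), purple processed transcript and grey polymorphic pseudogene, and the orange part of Clec4e grew from 7.0% to 19.5%.

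The higher level of Clec4e in replicate 2 was uneven over its transcripts. The 2 protein-coding transcripts had 8085 counts in replicate 1 and 10641 in replicate 2, a log2 ratio of 0.85 (0.81 to 0.89), which is under 2-fold. The 3 retained-intron transcripts had 892 and 4247 counts, a log2 ratio of 2.70 (2.60 to 2.81). Their share of the gene's TPM was 7.0% in replicate 1 and 19.5% in replicate 2, and the FASTQ-derived estimates were 16.2% and 37.6%. FASTQ-derived counts were 7707 and 8529 for the coding transcripts and 2015 and 7596 for the retained-intron transcripts. Both intervals cover counting error only and not the division of reads among transcripts, so the size of each ratio is uncertain. Relative to the rest of the gene, alignment-derived retained-intron counts were higher in replicate 2 by 1.85 on the log2 scale. Of the 1799 genes with enough counts of both kinds, 98.7% had a lower value, the median was 0.24, and 13.3% were at least 2-fold higher. Clec12a, the only other member that could be compared, was at 0.84.

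These transcripts keep intron 2, intron 3 or both of the 5 introns of Clec4e-201. No annotated transcript keeps any of the other introns whole, so these counts cannot show whether those were retained too. Those that keep intron 2 (chr6:123286519-123288893, 2375 bases) had 460 and 2670 counts, a log2 ratio of 2.99 (2.85 to 3.14). Those that keep intron 3 (chr6:123286360-123286431, 72 bases) had 538 and 2340 counts, a log2 ratio of 2.57 (2.44 to 2.71). FASTQ-derived counts were 743 and 3983 for intron 2 and 1325 and 3994 for intron 3. The short intron is printed from Clec4e-203 with 30 bases of exon on each side (chr6:123286330-123286461, mm10, minus strand), since its presence tells this transcript from the coding one, and capitals mark the intron.
Clec4e-203: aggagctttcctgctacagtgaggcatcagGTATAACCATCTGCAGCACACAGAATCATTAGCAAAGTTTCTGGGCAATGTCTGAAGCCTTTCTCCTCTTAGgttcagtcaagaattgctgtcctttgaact

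The main transcripts of Clec4d had similar shares in both libraries. Clec4d-201, the coding form, held 64.9% and 61.9% of TPM, and Clec4d-203, annotated as a target of nonsense-mediated decay, held 34.8% and 36.8%. In the FASTQ-derived table Clec4d-203 had 37.5% and 37.1%. The retained-intron transcript Clec4d-202 was small and higher in replicate 2, at 0.311% and 1.26% of TPM (5.5 and 15.1 counts), or 0.520% and 3.84% in the FASTQ-derived table. Clec4d-201 and Clec4d-203 differ where exon 3 joins exon 4, whose start lies 77 bases further on in Clec4d-203 (chr6:123268069-123268143, plus strand) than in Clec4d-201 (chr6:123267992-123268143). Their last exons differ too, with 608 bases in Clec4d-201 and 266 in Clec4d-203, so their shares do not rest on this join alone. The last 30 bases of exon 3 and the first 30 of exon 4 are printed for both, and capitals mark the annotated stop codon that begins at base 9 of the shorter exon 4.
Clec4d-201: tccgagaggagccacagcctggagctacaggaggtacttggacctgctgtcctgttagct
Clec4d-203: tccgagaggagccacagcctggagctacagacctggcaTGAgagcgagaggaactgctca

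Clec5a was led by a transcript with no annotated protein. Clec5a-201, a processed transcript, held 60.2% and 55.9% of the gene's TPM, and the 3 coding transcripts held the other 39.8% and 44.1%. In TPM, the coding transcripts came to 6.97 and 8.98. Clec5a-201 has 4 exons. None of them has the same bounds as 2 inner exons of Clec5a-202, of 197 bases in all, or as 3 inner exons of Clec5a-203. Partial overlap of these exons was not examined. The last exon of Clec5a-201 is 1364 bases long, and that of Clec5a-203, the highest coding transcript, 231 bases. That of Clec5a-202 is longer still. If these exons begin at the same base, reads from their far part can be assigned only to Clec5a-201 and Clec5a-202 among these forms. Their positions were not compared.

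Clec7a RNA was divided mainly among 3 transcripts that differ at the join of exon 2 to the next exon. The retained-intron transcript Clec7a-203 held 1.06% and 0.826% of TPM, or 5.61% and 5.06% in the FASTQ-derived estimates. Mouse Dectin-1 is known in a full-length form and in a short form without the stalk that exon 3 encodes, and C57BL/6 mice are known to make mainly the short form. Clec7a-202, which skips that exon, held 37.3% of TPM in replicate 1 and 39.8% in replicate 2. Clec7a-201, annotated as coding, held 36.4% and 39.6%, and Clec7a-204, the polymorphic pseudogene form, 25.3% and 19.8%. The FASTQ-derived estimates turned the order, with 29.3% and 31.3% for Clec7a-202, 39.1% and 42.0% for Clec7a-201 and 26.0% and 21.6% for Clec7a-204. Which of these 3 transcripts led is thus not settled by the tables. Clec7a-202 held 39.8% at most in either quantification, and the transcripts that join exon 2 to exon 3 held most of the rest. Whether the short form was the main one here was not tested. The deposited posterior SD of the count was 243 and 164 reads for Clec7a-201 and 237 and 162 reads for Clec7a-204, against counts of 2269 and 1365 and of 1570 and 679.

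The sequences over the join show how little separates them. Each line gives the last 30 bases of exon 2 as it ends in Clec7a-204 and the 40 bases that follow, on the minus strand, and capitals mark the first 10 of those 40.
Clec7a-204: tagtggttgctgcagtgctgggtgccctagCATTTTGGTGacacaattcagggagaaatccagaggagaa
Clec7a-201: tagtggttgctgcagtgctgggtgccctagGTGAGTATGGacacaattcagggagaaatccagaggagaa
Clec7a-202: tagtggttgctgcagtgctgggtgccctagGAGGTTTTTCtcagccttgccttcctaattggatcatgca
Clec7a-204 joins exon 2 (chr6:129470899-129470997) to exon 3 (chr6:129468869-129469003) and reads a stop as codon 71, at this join. Clec7a-201 extends exon 2 by 10 bases and starts exon 3 10 bases later, which exchanges the 10 capital bases (8 of 10 differ) and leaves 244 codons open. The intron this would remove ends in the letters tg, and not in the usual ag. Clec7a-202 joins exon 2 to the exon at chr6:129467517-129467668 and has 199 open codons. Of their 31-base words, only 38 of 2247 in Clec7a-201 and 39 of 2242 in Clec7a-204 were not found in the other forms shown. The annotated last exon of Clec7a-202 is 1435 bases shorter than that of Clec7a-201, so reads from those bases cannot be assigned to it. The division between Clec7a-201 and Clec7a-204 therefore rests on few positions.

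The bases before the start of Clec4e and Clec4d are shown because these genes are neighbours, encode partner receptors and differed in their ratio. The genes point towards each other, with 6.52 kb between their 3′ ends, so their starts lie further apart. RefSeq promoter windows of the GRCm38.p6 assembly were available for 25 members, 13 of them detected. The 250 bases before each start are printed 5′ to 3′ on the gene's strand, and capitals mark matches to the motif letters below.
Clec4e: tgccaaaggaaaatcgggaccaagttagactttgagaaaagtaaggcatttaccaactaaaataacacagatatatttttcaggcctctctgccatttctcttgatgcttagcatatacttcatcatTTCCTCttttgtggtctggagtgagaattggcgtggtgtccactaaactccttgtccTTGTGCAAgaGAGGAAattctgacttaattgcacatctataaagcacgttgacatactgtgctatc
Clec4d: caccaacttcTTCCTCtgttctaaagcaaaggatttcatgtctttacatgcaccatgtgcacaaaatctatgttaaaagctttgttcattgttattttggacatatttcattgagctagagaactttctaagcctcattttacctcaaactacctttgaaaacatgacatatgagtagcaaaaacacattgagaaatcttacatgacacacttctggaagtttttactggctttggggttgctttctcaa
The windows lie at chr6:123289872-123290121 (minus strand) for Clec4e and chr6:123261857-123262106 (plus strand) for Clec4d. The letters GAGGAA, a core of Ets factors such as PU.1, began 123 and 56 bases before the start of Clec4e and 240 bases before that of Clec4d. On both strands they occurred in 23.3% of all 32851 windows of this length, in 14 of the 25 members and in 9 of the 13 detected ones. A member counts if any of its windows holds a match, and the 25 members have 28 windows. The counts of members are thus not in the same unit as the shares of windows. The letters TTGCNNAA, a C/EBP pattern, began 66 bases before the start of Clec4e, and were in 9.56% of windows and 4 members (4 of the detected ones). Neither window held TGANTCA, an AP-1 pattern (6.75% of windows, 5 members, 1 of them detected). Neither held the loose NF-kB pattern of GGG and CC with 5 bases between them (45.8% of windows, 4 members, 2 of them detected). The marked matches do not overlap, and each is a match of letters, not a measured site.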

How the data were processed

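RNA-seq was analysed from 2 libraries of 1 group, made from 1 µg of RNA each (labelled size range 250 to 400). The authors deposited, per the file headers and notes, expected counts and TPM per gene and transcript from an alignment, and estimated counts and TPM per transcript from 4 FASTQ files, on mm10 with GENCODE M21. No tool, version or strand setting is given in the sources used here. Overlapping and antisense genes therefore cannot be told apart.

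From these, expected counts were rounded and scaled by TMM (edgeR 4.0.16, R 4.3.3). Ratios are replicate 2 over replicate 1 with 0.5 added and exact (Clopper-Pearson) 95% intervals. Detection needed 1 TPM in both libraries, and the 2-fold rule 20 counts in each. No test between conditions was possible, since 1 group was analysed. Retained-intron counts were summed over transcripts so annotated and compared with the rest of the gene, for genes with 20 counts of each kind in each library. DESeq2 1.42.0 size factors, other filters and the FASTQ-derived table were alternatives. The ratio step was run on simulated counts with changes larger than 2-fold put into well-counted genes. This checks the code and not the spread of real cultures. Every member is named, and of the other lists the 3 highest, the lowest, partners of a member and genes 2-fold different. The members and lists were chosen with earlier results of these data known. Clec2m was listed and has no entry under that symbol. Other steps ran in Python 3.11.15 with pandas 2.3.3 and scipy 1.17.1.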

Additional observations from a re-analysis of the deposited data

Results flagged for a closer look

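For 5 members the FASTQ-derived table held reads in a library in which the alignment-derived gene table held 0 counts, above the limit of 3 counts used here for a count of 0. These were Clec12b with 7 and Clec2e with 9 estimated counts in replicate 1, Clec2f with 4 and Clec2g with 16 in replicate 2, and Clec2h with 3.69 in replicate 1. Clec2h lies past the limit of 3 counts but not past the exact 95% upper bound for a count of 0, so it is marginal. Clec2g overlaps the antisense gene Gm15987, which had 65 and 133 counts, and shares 13.7% of its 31-base words with other genes. Whether these reads belong to the named genes was not tested.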

How the results depend on the processing

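All 15 log2 ratios between the libraries kept their sign under the 6 alternative scalings, filters and tables in which each could be computed. Clec4e stayed between 1.16 and 1.18. Most of these alternatives could hardly change a sign. Filters on counts only choose the genes kept, and a larger added count only shrinks a ratio. The TMM factors were 1.0026 and 0.9974, so total counts gave nearly the same scale. With FASTQ-derived counts Clec4a1 was at -0.38, outside its interval of -0.36 to -0.31. The share of protein-coding TPM in Clec genes averaged 0.262%, and 0.219% when expected counts replaced TPM. Without a filter on counts, 8 of 26 members in place of 1 of 15 were at least 2-fold different, and apart from Clec4e all had under 20 counts in a library. Without a TPM filter, 1 member (Clec2g) differed 2-fold between the quantifications, in place of 0. Detected members numbered 16 without replicate 1 and 17 without replicate 2, and the members 2-fold apart between quantifications 0 and 1 (Clec4a4). The Clec4e ratio depended on the transcripts counted, at 0.85 for coding and 2.70 for retained-intron transcripts in the alignment-derived counts. These alternatives were chosen after seeing the data. No paired analysis was possible because there is 1 group. Depth limits members under 20 counts, whose ratios were not called.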
